A study of Rattus norvegicus with 4 samples.

Results

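Oligodendrocytes are the glial cells that wrap axons of the brain and spinal cord in myelin, and 9 genes that mark successive stages of their lineage were examined in the prefrontal cortex of newborn rats. The genes were chosen by name, as the rows whose gene symbol was Olig1, Olig2, Sox10, Pdgfra, Cspg4, Gpr17, Mbp, Mag or Cnp. All 9 were listed in every library, each on 1 row, among 17419 rows in all and 16182 listed in the 4 libraries. The first 6 are markers of precursor cells or of commitment to the lineage, and the last 3 encode myelin proteins. The rule for these 9 used their names and no measured value, but the members were named with earlier results of these data known.

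The tissue was frontal cortex of rats at postnatal day 1 by the labels, while the study's methods also allow the day after. The strain is given as Wistar in the labels and as Wistar Furth, an inbred strain, in the methods. Dams of the BPA groups were given 5000 microgram of bisphenol A (BPA, an estrogen-like compound used in plastics) per kilogram of body weight by gavage every day from gestation day 1 to birth, and dams of the control groups were given the vehicle, ethanol in corn oil. The 4 libraries, 1 for each sex and treatment, are named by both, such as control male. The methods speak of several pups per sex and treatment, taken from independent litters, but neither they nor the labels say whether a library pooled these pups or held a single one. A comparison within a sex therefore set 1 library against 1, without a replicate check.

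Oligodendrocyte precursors arise from progenitors that express the transcription factors OLIG1 and OLIG2, turn on SOX10, and divide in response to platelet-derived growth factor, which they sense through the receptor PDGFRA. They carry the proteoglycan NG2, the product of Cspg4, on their surface. The receptor GPR17 marks cells that have left the precursor state but do not yet make myelin. Myelin genes such as Mbp and Mag rise steeply in the rodent forebrain only in the weeks after birth.

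Levels were read as FPKM, a fragment count scaled to transcript length and library depth, which allows genes to be compared. Since a rarely read gene can change only by whole fragments, its FPKM values reveal the depth, which was estimated at 9254500 and 8952250 fragments in the male and female control and at 9190000 and 9002500 in the male and female BPA library. Intervals given below are 95% intervals from the estimated fragments, for ratios without a pseudocount, and cover counting error only. The labelled tissue was checked with Neurod6, a transcription factor of cortical excitatory neurons, which lay between 215.55 and 255.27 FPKM in the 4 libraries.

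The order of the 9 genes by level was the same in all 4 libraries. Olig1 came first with a mean of 40.4 FPKM over the libraries, followed by Cnp, Pdgfra, Mbp, Olig2, Gpr17, Sox10 and Cspg4, and Mag came last with 0.94. Olig1 thus stood above 87.2% of all genes listed in the 4 libraries, and Mag above 17.9%. Over the 4 libraries, the ranges of neighbours in this order stayed apart except for Cnp and Pdgfra, which met at 24.31 FPKM. Counting intervals of neighbours overlapped between Olig2 and Gpr17 in 3 libraries, between Pdgfra and Mbp in 1 and between Mbp and Olig2 in 1. An overlap of intervals does not show that the levels were equal, and the differences themselves were not tested.

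**Figure D1:**
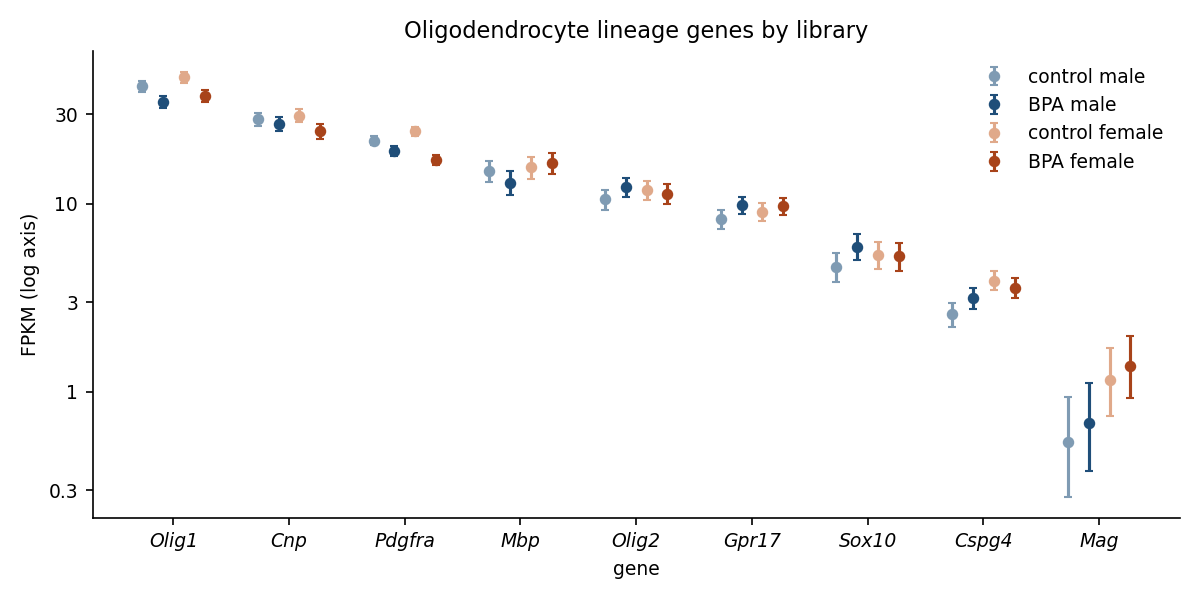
FPKM on a log axis (vertical) of the 9 genes (horizontal, ordered by mean), with 1 point per library and bars for the 95% counting interval. The same order held in every library, from Olig1 (34.79 to 47.08) down to Mag (0.54 to 1.38), and the bars of Mag are the widest because it rested on 12 to 30 fragments.

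Olig1 encodes a basic helix-loop-helix factor of the lineage that acts in its maturation and repair (NCBI Gene 60394). Its FPKM was 42.27 (male) and 47.08 (female) in controls and 34.79 and 37.39 with BPA. Both BPA libraries were below both control libraries, as they were for 31.9% of the 13162 genes with a mean of at least 1 FPKM. The means were 36.1 ± 1.84 with BPA and 44.7 ± 3.4 in controls (SD over the male and the female library, n = 2). The log2 ratio of BPA to control, taken after adding 0.5 to each FPKM, was -0.28 in males (interval -0.43 to -0.13) and -0.33 in females (-0.48 to -0.19). With the male and the female library as replicates of each treatment, limma fitted across 13162 genes with a mean of at least 1 FPKM gave a log2 ratio of -0.30 with a standard error of 0.0798 (Benjamini-Hochberg adjusted p = 0.158). The gene was lower in 2 of 2 sexes but did not pass the adjusted threshold of 0.05.

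Pdgfra, the receptor for the main growth factor of precursors (NCBI Gene 25267), was also lower in both BPA libraries. Its FPKM was 21.65 (male) and 24.31 (female) in controls and 19.09 and 17.11 with BPA. Both BPA libraries were again below both control libraries, which 31.9% of all fitted genes had. The female pair differed more than the male pair. The log2 ratio was -0.18 in males (interval -0.30 to -0.06) and -0.49 in females (-0.63 to -0.38), and limma gave -0.34 with a standard error of 0.0958 (adjusted p = 0.182). With the fragments of these libraries, 940 to 1328 per library, the female ratio was lower than the male ratio by 0.33 on the log2 scale (interval of the difference -0.49 to -0.16). This interval leaves out the variation between animals, which 1 library per group cannot give.

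Pdgfra is also a marker of fibroblasts of the meninges and vessel walls, and a list of 14 genes of those cells moved with the treatment. Their summed FPKM was 506 (male) and 659 (female) in controls and 230 and 159 with BPA. All 14 were lower in both BPA libraries than in both control libraries, against 31.9% of all fitted genes. Lower values passed limma for 7 of the 14, against 0.456% of all fitted genes, namely Igf2, Col1a1, Col1a2, Col3a1, Dcn, Gjb2 and Slc22a6 with log2 ratios from -1.88 to -1.39. Without the filter on low values none of the 7 passed, with adjusted p from 0.119 to 0.151. The study's methods state that the meninges were stripped off. The order of the libraries by this sum, with control female highest and BPA female lowest, was also the order by Pdgfra and by the member Cnp. The part of fibroblasts in the Pdgfra values was not tested. In bulk tissue, fewer cells of a type and less RNA per cell cannot be told apart.

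Olig2, the factor that specifies the lineage (NCBI Gene 304103), is also expressed by progenitors of the ganglionic eminence. Its FPKM was 10.57 (male) and 11.83 (female) in controls and 12.25 and 11.34 with BPA, so the BPA values lay within or just above the range of the controls. The log2 ratio was 0.20 in males (interval -0.03 to 0.47) and -0.06 in females (-0.31 to 0.19), and limma gave 0.07 with a standard error of 0.103 (adjusted p = 0.75). The 9 listed genes of a ganglionic eminence list summed to 83.1 (male) and 81.3 (female) FPKM in controls and to 76.8 and 74.0 with BPA, and 0 of the 5 fitted passed limma (1 at an unadjusted p under 0.05). The median log2 ratio of the 5 was -0.09. Of them, 1 lay below both controls and 1 above, against 31.9 and 18.7% of all fitted genes.

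Olig1 and Olig2 are neighbours, with 0 protein-coding genes between them in the rat assembly GRCr8, and the ratio of their levels differed between the treatments. Olig1 FPKM divided by Olig2 FPKM was 4.0 in control male (interval 3.47 to 4.63) and 3.98 in control female (3.48 to 4.58). It was 2.84 in BPA male (2.47 to 3.27) and 3.3 in BPA female (2.86 to 3.82). Both BPA libraries were lower than both controls. The interval of BPA male ended below those of both controls, whereas that of BPA female overlapped them. This ratio was examined after the values of both genes had been seen and was not tested.

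Sox10 encodes the factor that turns on many myelin genes (NCBI Gene 29361). Its FPKM was 4.59 (male) and 5.35 (female) in controls and 5.91 and 5.25 with BPA. The control male library was the lowest and BPA male the highest, with both female libraries between them. The log2 ratio was 0.33 in males (interval 0.02 to 0.71) and -0.02 in females (-0.38 to 0.32), and limma gave 0.15 with a standard error of 0.146 (adjusted p = 0.62). Olfactory ensheathing and peripheral glia also use Sox10. Of a list of 10 genes of those cells, 6 could be fitted and 0 passed limma (4 at an unadjusted p under 0.05), with a median log2 ratio of -0.46. The list summed to 140 (male) and 131 (female) FPKM in controls and to 125 and 160 with BPA. Most of this sum came from the neuropeptide gene Npy, which was 101.53 and 93.08 in controls and 98.14 and 135.76 with BPA. The higher female sum with BPA went with Npy, whereas 5 of the 6 fitted genes lay below both controls, against 31.9% of all fitted genes. Pmp22, a membrane protein of peripheral myelin and the next most abundant of the list, had a log2 ratio of -0.48 (adjusted p = 0.0786).

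Cspg4 encodes the NG2 proteoglycan (NCBI Gene 81651). Its FPKM was 2.58 (male) and 3.91 (female) in controls and 3.14 and 3.56 with BPA. Both BPA values lay between those of the controls, and the difference between the control libraries (log2 ratio of female to male 0.52, interval 0.33 to 0.88) was larger than that of either BPA comparison. The log2 ratio of BPA to control was 0.24 in males (interval 0.0 to 0.57) and -0.12 in females (-0.39 to 0.11), and limma gave 0.06 with a standard error of 0.225 (adjusted p = 0.912). Pericytes, which also carry NG2, were followed by a list of 10 genes of pericytes and vascular smooth muscle. It summed to 66.5 (male) and 73.3 (female) FPKM in controls and to 54.7 and 52.1 with BPA. Of the 9 fitted, 0 passed limma (5 at an unadjusted p under 0.05). The gene of the list with the highest level, Rgs5, was lower in both BPA libraries (log2 ratio -0.49, adjusted p = 0.0636). In all, 5 of the 9 lay below both controls, against 31.9% of all fitted genes. Pdgfrb (log2 ratio -0.15), Kcnj8 (0.12), Abcc9 (0.0) and Higd1b (-0.04) overlapped the controls.

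Gpr17, the receptor of committed cells (NCBI Gene 767613), was the only one of the 9 genes with both BPA libraries above both controls, which 18.7% of all fitted genes had. Its FPKM was 8.3 (male) and 9.03 (female) in controls and 9.83 and 9.72 with BPA. The log2 ratio was 0.23 in males (interval 0.01 to 0.47) and 0.10 in females (-0.12 to 0.33), and limma gave 0.17 with a standard error of 0.102 (adjusted p = 0.44). The BPA means and control means were 9.78 ± 0.0778 and 8.66 ± 0.516 FPKM (SD, n = 2).

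Among the myelin genes, Cnp encodes an enzyme of oligodendrocyte membranes that is already made by precursors (NCBI Gene 25275). Its FPKM was 28.22 (male) and 29.51 (female) in controls and 26.55 and 24.31 with BPA. Both BPA libraries were below both controls, which 31.9% of all fitted genes had. The log2 ratio was -0.09 in males (interval -0.26 to 0.08) and -0.27 in females (-0.45 to -0.11), and limma gave -0.18 with a standard error of 0.0767 (adjusted p = 0.297).

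Mbp encodes myelin basic protein (NCBI Gene 24547), and the same locus also makes golli proteins, which are found in neurons and immune cells as well. The files annotate its row with 8 protein records that include both forms, so the FPKM could not be split between them. It was 14.91 (male) and 15.64 (female) in controls and 12.92 and 16.42 with BPA, and BPA male and BPA female thus stood at the lower and the upper end. The log2 ratio was -0.20 in males (interval -0.50 to 0.08) and 0.07 in females (-0.20 to 0.34), and limma gave -0.07 with a standard error of 0.126 (adjusted p = 0.818).

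Mag, a glycoprotein of the inner myelin membrane that appears late in maturation (NCBI Gene 29409), was near the limit of the depth. It was listed at 0.54 (male) and 1.16 (female) FPKM in controls and 0.68 and 1.38 with BPA, which correspond to 12 and 25 fragments in controls and 15 and 30 with BPA. Its mean of 0.94 FPKM was below the minimum of the main fit, and without that minimum limma gave a log2 ratio of 0.18 with a standard error of 0.361 (adjusted p = 0.836). The female library was above the male one in both treatments, by 0.67 on the log2 scale in each after adding 0.5. Without a pseudocount the log2 ratio of female to male was 1.11 in controls (interval 0.06 to 2.23) and 1.03 with BPA (0.09 to 2.03). The log2 ratio of BPA to control was 0.18 in both sexes after adding 0.5. Without a pseudocount it was 0.33 in males (interval -0.86 to 1.56) and 0.25 in females (-0.56 to 1.08). These intervals hold both no change and a doubling (1 on the log2 scale).

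As a group, the 9 genes were set beside all fitted genes. None reached an absolute log2 ratio of 0.5 between the BPA and the control library of a sex, against 11.4% of the 13162 fitted genes in males and 14.4% in females. None reached 1, against 3.07 and 4.1% of all genes. Of the 8 fitted members, 0 passed limma at an adjusted p under 0.05, against 0.562% of all fitted genes. Olig1 and Pdgfra were the 2 members with an unadjusted p under 0.05, which 17.3% of all genes had. Olig1, Pdgfra, Cnp and Gpr17 were the 4 of 8 fitted members without overlap between BPA and control libraries, against 50.6% of all genes. The same 4 of 8 had the same direction in both sexes, against 66.0% of all genes. The counting interval left out no change for 5 of 8 in males (Olig1, Sox10, Pdgfra, Gpr17 and, with a lower bound that rounds to 0.0, Cspg4) and for 3 in females (Olig1, Pdgfra, Cnp), against 35.6 and 36.3% of all genes. Of these, 2 were lower in males (Olig1 and Pdgfra) and all 3 in females, against 21.5 and 22.7% of all genes. The other 3 in males were higher and 0 were higher in females, against 14.1 and 13.7% of all genes. Between libraries of the same treatment, an absolute log2 ratio of 0.5 was reached by 2 of the 9 genes among controls (Cspg4 and Mag) and by 1 with BPA (Mag), against 7.6 and 8.33% of all genes.

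**Figure D2:**
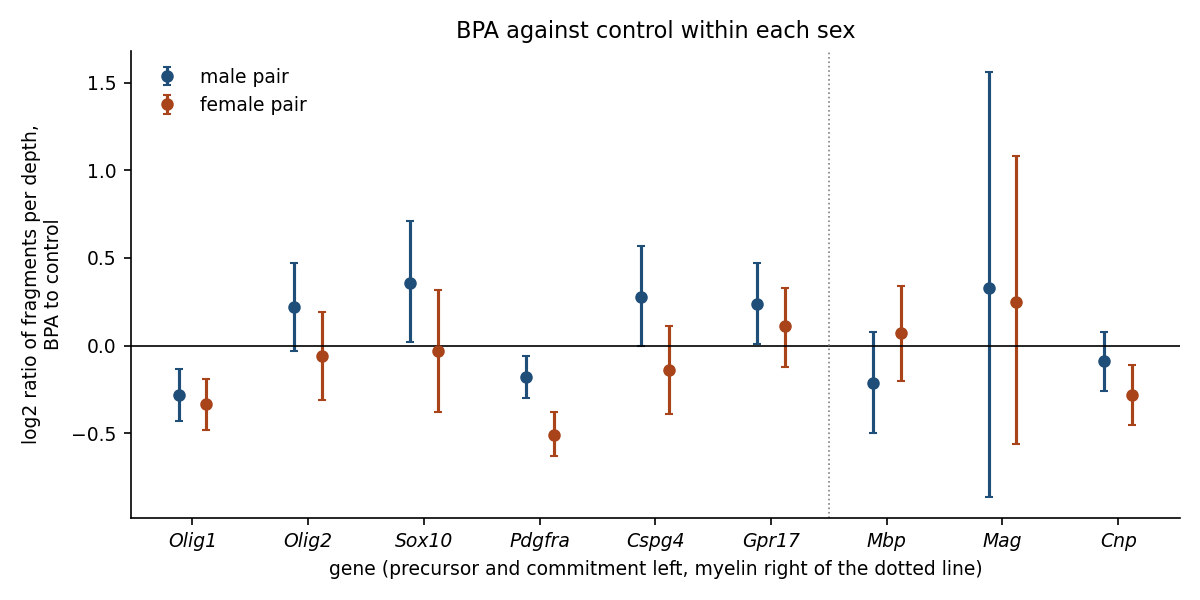
Log2 ratio of BPA to control (vertical, estimated fragments divided by depth, no pseudocount) for each of the 9 genes (horizontal), with 1 point for the male and 1 for the female pair of libraries and bars for the 95% counting interval. Olig1 and Pdgfra lie below 0 with their whole interval in both sexes, and the interval of Mag spans -0.86 to 1.56 in males.

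Precursor and myelin genes were compared by their medians, without a test. The median limma log2 ratio was 0.07 over the 6 precursor and commitment genes and -0.12 over the 2 fitted myelin genes, with -0.04 over all fitted genes. With Mag included, the median log2 ratio of the 3 myelin genes minus that of the 6 precursor genes was -0.30 in males and 0.16 in females, and -0.13 over both. The sexes thus pointed in opposite directions, with an SD of 0.33, and without BPA male the value over both was 0.05. The precursor genes themselves were divided, since Olig1 and Pdgfra were lower and the medians of the 6 were 0.22 in males and -0.09 in females. Summed myelin FPKM divided by summed precursor FPKM was 0.485 (male) and 0.456 (female) in controls and 0.472 and 0.499 with BPA. Neither treatment nor sex separated these ratios.

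Promoter windows were looked up for the members that were lower with BPA in both sexes. RefSeq windows of GRCr8, which reach from 250 bases before to 50 after a gene's start, were held for Pdgfra and Cnp but not for Olig1, and are printed 5′ to 3′ on the gene's strand. The Pdgfra window is chr14:33408467-33408766 on the minus strand and the Cnp window is chr10:86011254-86011553 on the plus strand. Capitals mark the E-box CANNTG, the motif of basic helix-loop-helix factors such as OLIG1 and OLIG2, and the SOX core ACAAAG or ACAATG, searched on both strands.
Pdgfra: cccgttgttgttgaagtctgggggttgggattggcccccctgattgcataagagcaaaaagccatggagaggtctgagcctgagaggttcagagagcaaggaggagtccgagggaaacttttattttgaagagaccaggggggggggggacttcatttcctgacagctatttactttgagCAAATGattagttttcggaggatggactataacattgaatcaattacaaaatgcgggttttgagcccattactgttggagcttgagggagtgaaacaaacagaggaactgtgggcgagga
Cnp: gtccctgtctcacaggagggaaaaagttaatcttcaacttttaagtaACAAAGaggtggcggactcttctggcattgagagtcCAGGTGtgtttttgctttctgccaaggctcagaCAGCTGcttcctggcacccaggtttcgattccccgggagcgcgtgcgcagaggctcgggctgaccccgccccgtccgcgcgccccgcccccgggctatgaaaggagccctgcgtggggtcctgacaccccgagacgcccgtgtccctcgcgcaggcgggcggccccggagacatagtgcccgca
The Pdgfra window held 1 E-box and 0 SOX cores and the Cnp window 2 E-boxes and 1 SOX core, with no overlap between motifs. Of 33469 windows of the same length, 72.1% held an E-box and 29.1% a SOX core. Windows were held for 7 of the 9 members, 8 windows in all with a pair for Mbp, and 4 of the 8 held an E-box and 3 a SOX core.

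Other genes of the lineage were taken from lists and read in the same limma fit. Of 15 fitted further precursor genes, 0 passed (2 at an unadjusted p under 0.05), and their median log2 ratio was 0.01. The most abundant were Ptprz1, a receptor phosphatase of glial progenitors, at 95.15 to 117.13 FPKM (log2 ratio -0.16), the channel subunit gene Cacng4 (0.09) and the matrix proteoglycan Bcan (-0.03). Of 10 fitted genes of committed and newly formed oligodendrocytes, 0 passed (2 unadjusted). Their median was -0.30, and 6 of the 10 were lower in both BPA libraries than in both controls, against 31.9% of all genes. The most abundant of them, the kinase Fyn, the GTPase Rras2 and the adhesion protein Nfasc, are shared with neurons and had log2 ratios of 0.04, -0.08 and 0.10.

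The 13 fitted genes of myelin and maturation beyond the members had a median of -0.39. Among them 2 passed limma, both lower with BPA, against 0.456% of all fitted genes. An unadjusted p under 0.05 was found for 4, against 17.3% of all fitted genes. Of the 13, 8 were lower in both BPA libraries than in both controls and 0 were higher, against 31.9 and 18.7% of all genes. Cldn11, a tight-junction protein of myelin and also of the arachnoid barrier of the meninges, was 17.24 (male) and 18.13 (female) FPKM in controls and 6.25 and 3.56 with BPA (log2 ratio -1.80 with a standard error of 0.232, limma adjusted p = 0.0462). Lpar1, a receptor for lysophosphatidic acid found in oligodendrocytes and fibroblasts, was 5.11 and 5.76 FPKM in controls and 1.81 and 1.60 with BPA (log2 ratio -1.43 with a standard error of 0.177, limma adjusted p = 0.0436). With any 1 of the 4 libraries left out, the log2 ratio stayed between -2.16 and -1.43 for Cldn11 and between -1.51 and -1.35 for Lpar1, but neither passed (adjusted p from 0.0786 to 0.25 and from 0.139 to 0.257), in fits where 0 to 6 of all genes did. Cldn11 also missed the threshold with a pseudocount of 0.1 (adjusted p = 0.0533), upper quartile scaling (0.0506), no filter (0.159) and no trend (0.158), and Lpar1 with sex as a block (0.0538), no filter (0.149) and no trend (0.119). The most abundant genes of this list besides Cldn11 were Qdpr and Sirt2, with log2 ratios of -0.12 and 0.02. Both genes that passed were lower in libraries where the meningeal list was lower, and the part of those cells was not tested.

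**Figure D3:**
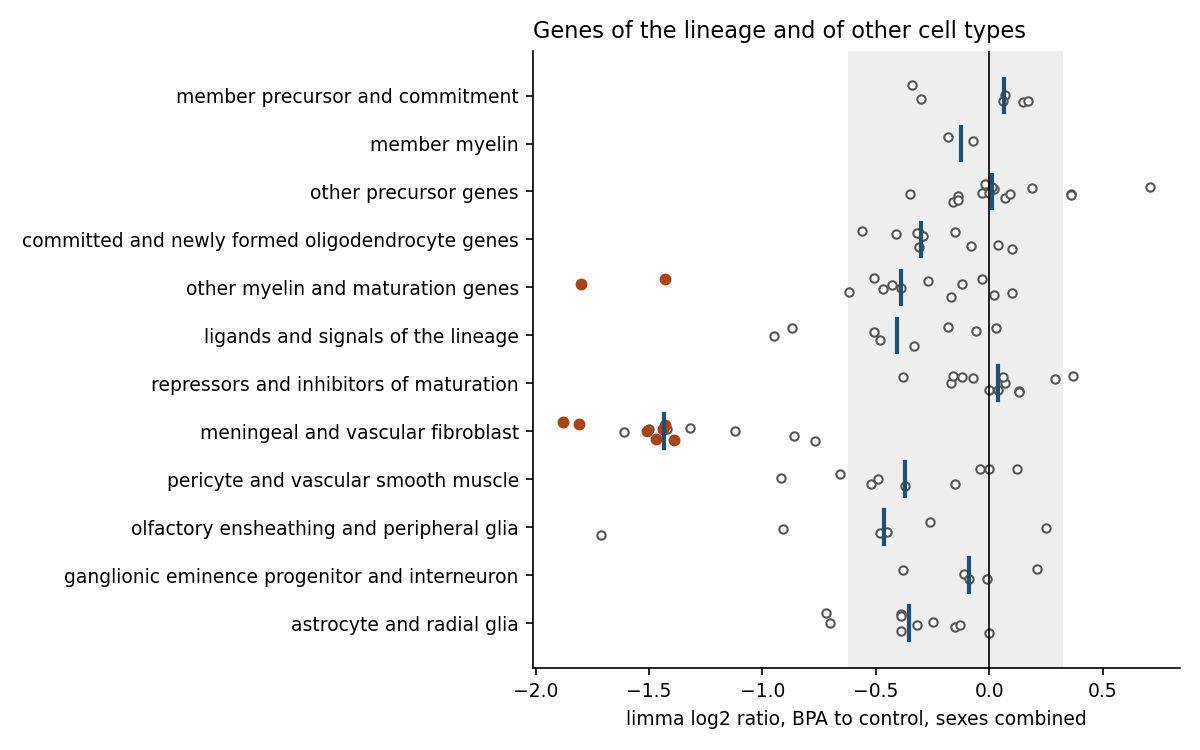
Limma log2 ratio of BPA to control with the sexes combined (horizontal) for the fitted genes of each list (vertical), with 1 point per gene, filled where the adjusted p was under 0.05, a vertical bar at the list's median and a grey band from the 5th to the 95th percentile of all fitted genes (-0.62 to 0.32). All fitted members lie inside the band, while Cldn11 (-1.80), Lpar1 (-1.43) and the fibroblast genes lie to its left.

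Signals that act on the lineage were read last. Of 8 fitted ligands, 0 passed (2 at an unadjusted p under 0.05) and the median was -0.41. Pdgfa, the ligand of PDGFRA, was 9.75 (male) and 8.85 (female) FPKM in controls and 10.84 and 8.28 with BPA (log2 ratio 0.03, adjusted p = 0.941). Cxcl12 and Igf1, which are also made by meningeal and vascular cells, had log2 ratios of -0.87 and -0.95 (adjusted p = 0.175 and 0.0753). Of 13 repressors and inhibitors of maturation, 0 passed (2 unadjusted), with a median of 0.04. Id2, an inhibitor of basic helix-loop-helix factors, was 145.04 (male) and 136.18 (female) FPKM in controls and 191.34 and 172.57 with BPA (log2 ratio 0.37, adjusted p = 0.096, and 0.0432 with sex as a block). Lingo1 and Hdac2 had ratios of 0.13 and 0.00.

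**Figure D4:**
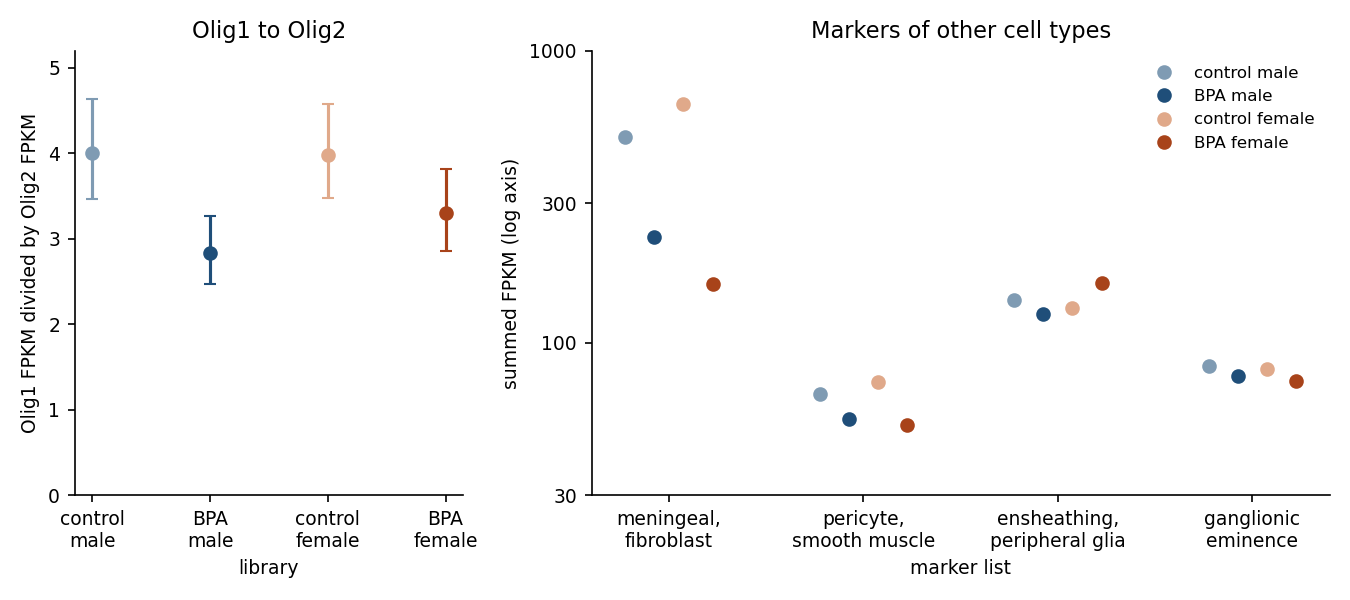
Left, Olig1 FPKM divided by Olig2 FPKM in each library with its 95% counting interval; right, summed FPKM on a log axis of 4 marker lists in each library. The ratio is 4.0 and 3.98 in the controls against 2.84 and 3.3 with BPA, and the fibroblast sum is 506 and 659 against 230 and 159. Most of the ensheathing and peripheral glia sum is from Npy.

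Lists of further cell types gave the setting of these values. Of the 10 fitted astrocyte and radial glia genes, 0 passed and 6 had an unadjusted p under 0.05, against 17.3% of all fitted genes. The median was -0.36, with Fabp7 at -0.32 and Vim at -0.39 the most abundant. Both BPA libraries were below both controls for 7 of the 10, against 31.9% of all fitted genes. Of 10 striatal projection neuron genes, Rxrg and Penk passed and were higher with BPA (1.79 and 0.64), and the median was 0.46. Both BPA libraries were above both controls for 9 of these 10 and below for 1, against 18.7 and 31.9% of all fitted genes. Of 3 fitted olfactory bulb projection neuron genes, Cdhr1 passed and was lower (-2.04), and the median was -1.35. Tbr1, the most abundant of them and also a gene of cortical neurons, had 0.06. Of 9 fitted cortical excitatory neuron genes, Slc17a7 was lower (-0.79) and Neurod2 higher (0.50), and Neurod6, the most abundant, had 0.11. Of 7 fitted microglia genes and 2 choroid plexus genes, 0 passed (1 unadjusted in each). The part of these cells in the members' values was not tested.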

How the data were processed

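Polyadenylated RNA of 4 libraries was analyzed. The authors aligned reads with Bowtie 2 against Rnor_6.0 and quantified genes by RSEM, and the submitters' processing notes also name HISAT and rn6, with versions not given in the sources used here. The deposited values are FPKM with 2 decimals, which the authors scaled to length and library size, with 0.01 as the lowest value, taken here as 0. The deposited transcript length, in bases, was used with FPKM to estimate fragments, after subtracting 60 bases, which gave the best fit to whole numbers. Of the scarce transcripts used, 86.2 to 88.2% came within 0.1 of a whole fragment. The FPKM times this length, summed, was 0.998 to 1.0 of the total the unit requires. On simulated data, the largest error of the depth was 0.00384%.

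Rows were grouped by Symbol, and 0 symbols stood on several rows. Counting intervals are exact (Poisson for levels, conditional binomial for ratios) and normal for the difference of 2 log2 ratios. Log2 FPKM after adding 0.5 was fitted with limma 3.58.1 (R 4.3.3) for genes with a mean of at least 1 FPKM, using treatment alone as a term, an intensity trend for the prior and Benjamini-Hochberg adjustment, which leaves 2 residual degrees of freedom. The sexes served as the replicates, so p-values measure the spread between these libraries. On simulated data of this comparison with 13162 genes, 195 of 200 changed and 7 unchanged genes were called. All planted changes were larger than any member's log2 ratio of BPA to control. The spread between the simulated libraries was assumed to be small, and no sex effect was added. The simulation therefore does not tell how often changes of the members' size would be called. Python 3.11.15 with numpy 2.4.6, pandas 2.3.3, scipy 1.17.1 and matplotlib 3.10.9 did the rest.

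The members, lists and alternatives were chosen with earlier results of these data known. Named genes were the 9 members, the list genes past the limma threshold, and the 3 (lineage lists) or 2 (other lists, given where a result touches them) with the highest mean FPKM. Fitted genes of the pericyte and smooth muscle list that overlapped the controls were also named. Alternatives were the pseudocount, the filter, the scaling, sex as a block, rows with an NCBI Gene ID alone, no trend, and each library left out. All 9 members matched the RefSeq gene table by Gene ID. Some genes of the lists are not reported here by name.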

Additional observations from a re-analysis of the deposited data

Results flagged for a closer look

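Of the 9 genes, 4 had log2 ratios of BPA to control of opposite sign in the 2 sexes, which was not tested for lack of replicate libraries within a sex. The same sign in both sexes was found for 5 of the 9, against 66.0% of all fitted genes. The female minus male difference was -0.26 for Olig2 (0.20 in males and -0.06 in females), -0.36 for Sox10 (0.33 and -0.02, the latter turning to 0.02 when libraries were scaled by their medians, which leaves 3 such genes) and -0.36 for Cspg4 (0.24 and -0.12). For Mbp it was 0.27 (-0.20 and 0.07). On estimated fragments, the 95% counting interval of this difference held 0 for Olig2 (-0.62 to 0.07), Sox10 (-0.87 to 0.08) and Mbp (-0.11 to 0.66), but not for Cspg4 (-0.79 to -0.05), whose control libraries were the farthest apart of these 4 genes.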

How the results depend on the processing

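Under the 14 alternative limma fits, 0 of the fitted members passed an adjusted p of 0.05. Olig1 came closest, with adjusted p from 0.0624 to 0.472, followed by Pdgfra with 0.0808 to 0.505, and their log2 ratios stayed between -0.38 and -0.23 and between -0.42 and -0.25. With each library left out in turn, the log2 ratio of Olig2 was -0.01 to 0.15, that of Cspg4 -0.20 to 0.32 and that of Mbp -0.23 to 0.10. Olig2 turned without control male (-0.01), Cspg4 without control male (-0.20) and without BPA female (-0.02), and Mbp without BPA male (0.10). The lowest adjusted p of these 3 genes was 0.392, for Mbp. The number of genes called over all fitted genes, 74, was 188 with at least 1 FPKM in every library, 477 among rows with an NCBI Gene ID, 0 without a filter, 0 without a trend, and 0 to 6 with a library left out. It was 86 with sex as a block. No paired analysis beyond that block was possible because the labels give no replicate numbers. The myelin minus precursor median was -0.22 to 0.05 with a library left out. A pseudocount of 0.1 brought 1 member, Pdgfra in females, to an absolute log2 ratio of 0.5. Fitting each row alone changed nothing, since no symbol was on several rows. Mag could be fitted only without the filter. With 1 library per sex and treatment, variation between animals was not measured, and 12 to 30 fragments limit Mag.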
